A study of Sus scrofa with 30 samples.

Results

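The genes described here are 10 members of the NF-kappaB pathway in the mammary gland of sows, chosen by name: the subunits NFKB1, NFKB2, RELA and RELB, the kinase subunits CHUK, IKBKB and IKBKG, the inhibitors NFKBIA and TNFAIP3, and the ubiquitin ligase BIRC3. They make up 10 of the 25991 gene sums tested and 25 of the 61773 transcripts in the deposited table. A gene sum is the total over the transcripts of a gene in a sample. The authors deposited the values as FPKM. The total of a sample was between 997480 and 1002643, a property of TPM, so the neutral word units is used.

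NF-kappaB proteins are transcription factors that act as dimers. In resting cells an inhibitor of the IkappaB family, such as the NFKBIA product, holds them in the cytoplasm. The IKK complex, made of the kinases CHUK and IKBKB and the scaffold IKBKG, marks that inhibitor for destruction when a receptor is engaged, and the freed dimers switch on genes that include their own inhibitors NFKBIA and TNFAIP3. In the mammary gland the pathway is known from epithelial proliferation in pregnancy, from the response to bacteria and from involution after weaning.

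Mammary tissue was taken from half-sibling hybrid sows (Danish Landrace × Yorkshire) at 5 stages, with 6 samples each and different sows at each stage. MG and LG stand for gestation days 70 and 110, EL and PL for days 2 and 10 after farrowing, and W2 for day 2 once the piglets had been weaned. No treatment or genetic change separates the groups. The stage names in the records are exchanged for 2 groups (mid-gestation for samples titled EL, early lactation for samples titled MG), and groups follow the titles. In each stage 3 of the 6 samples differed from each other by a median of at most 1.85%, against 19.5% to 59.3% between pairs of the others, and their mean lay within 0.741% of the mean of the others. They were therefore not counted, which left n = 3 (MG 1, 3 and 6, LG 1, 3 and 4, EL 3, 4 and 6, PL 2, 3 and 6, W2 2, 3 and 6), and p-values measure the spread between these samples alone.

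The sample PL 2 stood apart before any comparison was made. Its 20 highest gene sums held 65.3% of all its units, against 26.6% to 47.3% in the other 14 samples, and it listed 21340 gene sums above 0, against 22671 to 23783. Of 5687 reference genes with a median of at least 10 units, 105 were listed at 0 in PL 2 and 4 to 37 in each other sample, while none of 12 housekeeping genes was listed at 0 in any sample, though YWHAZ was under 2 units in MG 1. As deposited, the median log2 fold change of all gene sums was −0.47 in PL against the other stages and 0.68 in W2 against PL. Changes of most of the 10 genes in these comparisons are therefore also given after median ratio scaling. It divides a sample by its median ratio to the mean log profile of 3521 gene sums with at least 10 units in every sample. That scaling brought the medians to −0.07 and 0.09. A log2 change with no scale named is as deposited. The sum of 6 luminal epithelial markers was 837 units in PL 2 and 1315 to 1992 in the other 14 samples. Among them EPCAM was listed at 475 to 754 units in all 15 samples, and CDH1 at 65.5 in PL 2 against 134 to 272 in the others. These marker values are as deposited, and the median ratio used for scaling was 0.566 in PL 2 and 0.836 to 1.28 in the other samples. The tissue was sampled whole, so fewer cells of a type, less RNA per cell and a larger share of the units in the highest genes cannot be told apart.

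Across the stages the 10 genes did not move as a block. By stage mean, NFKB1, NFKBIA and BIRC3 were highest in PL, and the other 7 were lowest there. NFKB2, RELA, CHUK, IKBKB and IKBKG were highest in W2, and RELB and TNFAIP3 in LG. These orders are of values as deposited and depend on the scale of the samples. The median ratios of the samples were 0.566, 0.840 and 0.839 in PL and 1.17, 1.25 and 1.28 in W2. After median ratio scaling CHUK was at 14.7 to 16.3 scaled units in PL, above the 12.5 to 13.0 of MG. RELA stayed below every other sample in PL 2 and PL 3, at 2.56 and 0 scaled units. In the order of the 5 stage means of each gene, the samples of neighbouring stages overlapped in 33 of 40 pairs and were separate in 7, and over all gene sums 9.84% of such pairs were separate. Most steps in these orders were not larger than the spread between sows. Separate neighbours as deposited were LG over EL for NFKB2, RELA and IKBKB, W2 over MG for IKBKB, LG over MG and MG over EL for IKBKG, and MG over EL for TNFAIP3. After median ratio scaling LG over EL for NFKB2 and IKBKB and LG over MG for IKBKG stayed separate. The samples of the other pairs named here then overlapped, as for RELA with LG 3 at 20.9 and EL 6 at 21.5 scaled units.

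**Figure D1:**
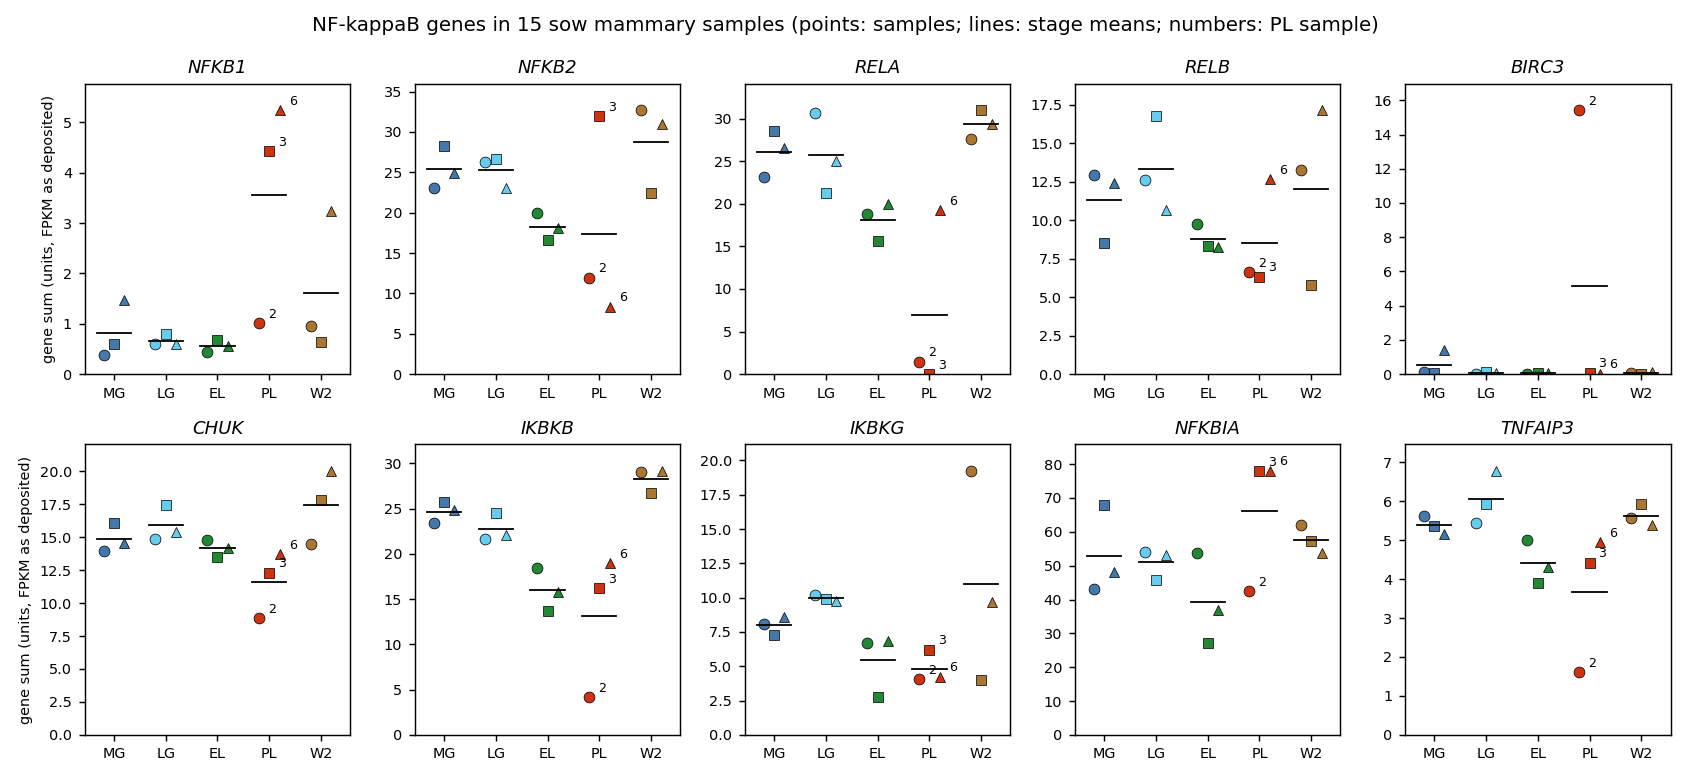
Gene sums of the 10 NF-kappaB genes in units (FPKM as deposited, linear axes from 0) for the 15 counted samples, with 3 samples per stage as points and the stage mean as a line. PL samples carry their numbers: RELA lies at 1.45 and 0 in PL 2 and PL 3 but at 19.2 in PL 6, NFKB1 is highest in PL 3 and PL 6, and BIRC3 is high in PL 2 alone.

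RELA encodes p65, the subunit that carries the main activation domain of the classical dimer (chromosome 2, 6594869 to 6602684, Sscrofa11.1, a single reference transcript). It was listed at 23.1, 28.5 and 26.5 units in MG, 30.7, 21.3 and 25.1 in LG, 18.8, 15.7 and 20.0 in EL, 1.45, 0 and 19.2 in PL, and 27.6, 31.0 and 29.3 in W2. PL 2 and PL 3 were far below every other sample, and PL 6 lay within the range of EL. In limma's fit over all gene sums, with Benjamini-Hochberg adjustment as in every adjusted p here, RELA fell by 3.30 ± 0.89 (SE) on the log2(units + 0.5) scale in PL against MG (adjusted p = 0.019) and by 3.27 against LG (adjusted p = 0.030). Neither was called after median ratio scaling, at −2.79 (adjusted p = 0.079) and −2.91 (adjusted p = 0.078). Against all other stages it fell by 3.21 ± 0.71 (adjusted p = 0.0054), by 2.79 after median ratio scaling (adjusted p = 0.023), and by 2.98 without PL 2 (adjusted p = 0.034). With the scaling and without PL 2 together, the call was lost at a log2 change of −2.74 (adjusted p = 0.068). The exact permutation test of PL against the 12 other samples gave p = 0.0066 as deposited (two-sided, the smallest possible being 0.0022) and p = 0.018 after median ratio scaling.

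The low RELA values rest on 2 of 3 sows and on a single transcript model. Of 3631 reference genes with at least 10 units in all 13 other samples, 3 were below 2 units in both PL 2 and PL 3: RELA, TFRC and PUM3, each with 1 transcript (the last 2 were named after their values were seen). Assembled transcripts carry no coordinates in the table, and whether RELA reads were assigned to one of them in these samples was not tested.

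NFKB1 (chromosome 8, 118391010 to 118478927, a single transcript) encodes p105, the precursor of the p50 partner of p65. Its levels were low throughout, at 0.370, 0.595 and 1.48 units in MG, 0.595, 0.792 and 0.593 in LG, 0.433, 0.677 and 0.559 in EL, 1.01, 4.43 and 5.25 in PL, and 0.960, 0.638 and 3.23 in W2. PL 3 and PL 6 were above every other sample, while PL 2 lay below MG 6 and W2 6. Against all other stages NFKB1 rose in PL by 1.44 ± 0.43 (SE) on the log2(units + 0.5) scale (adjusted p = 0.023), by 1.87 after median ratio scaling (adjusted p = 0.0056) and by 2.05 without PL 2 (adjusted p = 0.0043). The exact permutation test gave p = 0.0066 as deposited and p = 0.0044 after median ratio scaling. The call rested on the 2 high samples, since it was lost without PL 3 (1.19, adjusted p = 0.096) or without PL 6 (1.08, adjusted p = 0.11).

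High NFKB1 and low RELA, partner genes of the classical dimer, were found together in 1 sow. PL 3 had high NFKB1 with RELA listed at 0, PL 6 had high NFKB1 with RELA at the level of EL, and PL 2 had low RELA with NFKB1 inside the range of the other stages. Pearson's r between the log2 values of these genes was −0.43 over the 15 samples, which share stages and the composition of each library.

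NFKB2 (chromosome 14, 113406412 to 113414177), the precursor gene of p52 in the alternative branch, was listed at 23.1, 28.2 and 24.9 units in MG, 26.3, 26.6 and 23.1 in LG, 20.0, 16.6 and 18.1 in EL, 11.9, 31.9 and 8.34 in PL, and 32.7, 22.5 and 31.0 in W2. The PL samples bracketed almost the whole range, with PL 3 near the top and PL 6 at the bottom. The log2 change in PL against the other stages was −0.68 ± 0.28 (SE, adjusted p = 0.089), and −0.13 after median ratio scaling (adjusted p = 0.78). Without PL 3 alone it fell by 1.22 (adjusted p = 0.00071), so that library decided the call. All 6 reference transcripts were listed. XM_021072742.1 and XM_021072745.1 led in most samples, at 13.7 and 9.30 units in MG 1 for example, whereas LG 1, PL 6, W2 2 and W2 6 spread over all 6 transcripts, and XM_021072742.1 was at only 0.829 units in PL 6 and 0.564 in W2 3.

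RELB, the partner of p52 (chromosome 6, 51444670 to 51480350), was listed at 12.9, 8.50 and 12.4 units in MG, 12.6, 16.8 and 10.6 in LG, 9.73, 8.34 and 8.28 in EL, 6.63, 6.31 and 12.6 in PL, and 13.2, 5.76 and 17.1 in W2. Stages next to each other in the order of means overlapped, and W2 alone held both the highest and the lowest sample. All LG samples lay above all EL samples as deposited, but not after median ratio scaling (LG 4 at 9.63 and EL 4 at 9.98 scaled units). The log2 change was −0.40 ± 0.29 (SE) in PL against the other stages (adjusted p = 0.33) and turned to 0.13 after median ratio scaling (adjusted p = 0.80).

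Within samples, the ratio of the inhibitor gene NFKBIA to RELA set PL apart. On the log2 scale of (units + 0.5) it was 4.46, 7.29 and 1.99 in PL 2, PL 3 and PL 6, and it lay between 0.77 and 1.49 in the 12 samples of the other stages. A ratio within a sample does not change with that sample's scaling, apart from the added 0.5 units, which weigh most where a gene is low. The ratio of NFKB2 to NFKB1 was 3.04, 2.72 and 0.62 in the PL samples and 3.07 to 4.76 in the others. PL 2 at 3.04 and W2 6 at 3.07 were nearly equal. With NFKB1 at 1.01 and 3.23 units in them, their order depends on the added 0.5, so PL 2 was not clearly apart. The ratio of RELB to RELA was 1.87 and 3.77 in PL 2 and PL 3, −0.59 in PL 6 and −2.33 to −0.34 elsewhere. RELA was listed at 0 in PL 3, so the sizes of 7.29 and 3.77 there are set by the added 0.5 units. These ratios are descriptions with no test.

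**Figure D2:**
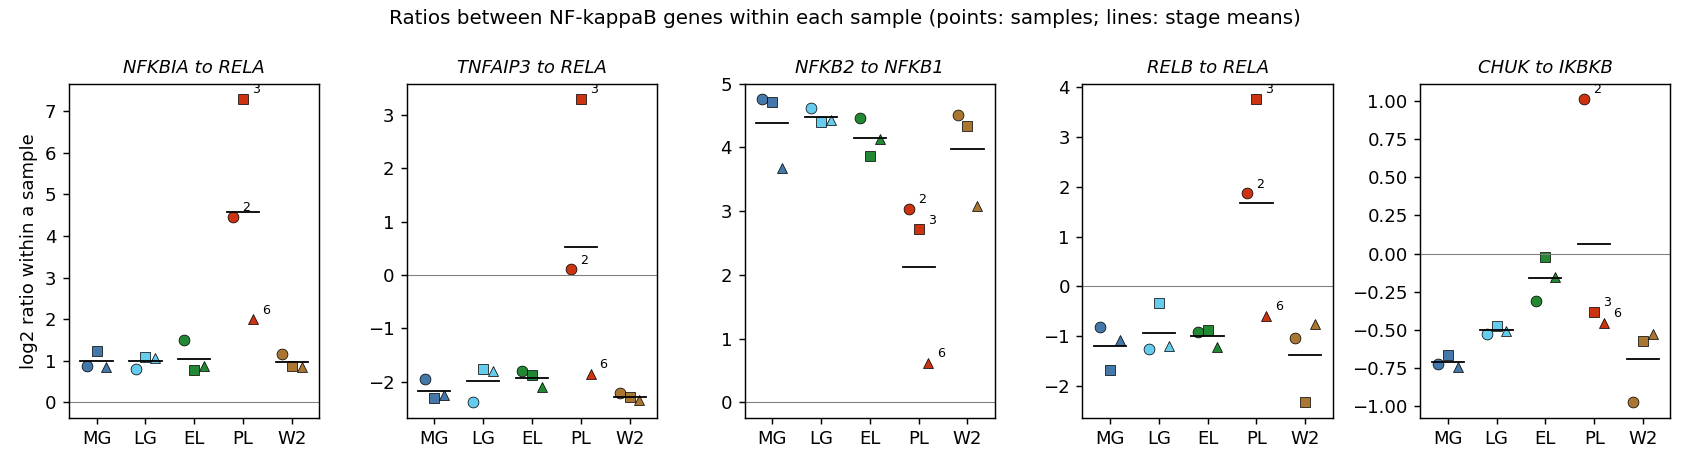
Log2 ratios of gene sums (each with 0.5 units added) within each of the 15 samples for 5 pairs of NF-kappaB genes, with samples as points, stage means as lines and PL samples numbered. All 3 PL samples lie above the other stages in NFKBIA to RELA and below them in NFKB2 to NFKB1, and CHUK to IKBKB lies between −0.98 and −0.02 outside PL 2.

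The IKK kinase genes CHUK and IKBKB were called lower in PL as deposited, and neither was called after median ratio scaling. IKBKB (chromosome 17, 11289607 to 11348557), the kinase of the classical branch, was listed at 23.4, 25.8 and 24.8 units in MG, 21.6, 24.5 and 22.1 in LG, 18.5, 13.7 and 15.8 in EL, 4.13, 16.2 and 19.0 in PL, and 29.0, 26.8 and 29.2 in W2. As deposited all 3 W2 samples were above every other sample, and PL 2 was below all. After median ratio scaling only W2 2 was above every sample of the other stages, at 24.8 scaled units, and PL 2 was still below all, at 7.30. In PL against the other stages IKBKB fell by 1.00 ± 0.32 (SE, log2, adjusted p = 0.031). The change was −0.46 after median ratio scaling (adjusted p = 0.22), and −0.34 without PL 2 (adjusted p = 0.056).

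CHUK, the kinase of the alternative branch (chromosome 14, 111316178 to 111351669, 1 transcript), had the smallest spread of the 10 genes relative to its mean, with an SD of 2.56 around 14.8 units over the 15 samples. It was listed at 13.9, 16.1 and 14.6 units in MG, 14.8, 17.5 and 15.4 in LG, 14.8, 13.5 and 14.2 in EL, 8.85, 12.3 and 13.7 in PL, and 14.5, 17.9 and 20.0 in W2. PL 2 and PL 3 were below every sample of the other stages. It fell by 0.42 ± 0.15 (SE, log2) in PL against the other stages (adjusted p = 0.047), close to the median fall of all gene sums. The sign turned after median ratio scaling (0.12, adjusted p = 0.45), where CHUK lay between 12.4 and 17.1 scaled units in all 15 samples.

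The log2 ratio of CHUK to IKBKB was −0.16 ± 0.14 (SD, n = 3) in EL. It was −0.50 ± 0.03 in LG and −0.71 ± 0.04 in MG, and W2 stood at −0.69 ± 0.25. The samples of MG, LG and EL did not overlap in it. In PL it was 1.01 in PL 2, where IKBKB was lowest, and −0.38 and −0.45 in PL 3 and PL 6.

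IKBKG, the scaffold NEMO (chromosome X, 125035575 to 125056445), was listed at 8.08, 7.28 and 8.59 units in MG, 10.2, 9.88 and 9.75 in LG, 6.71, 2.74 and 6.84 in EL, 4.05, 6.19 and 4.24 in PL, and 19.3, 3.97 and 9.70 in W2. The W2 sows alone spanned most of the range. The log2 change in PL against the other stages was −0.66 ± 0.36 (SE, adjusted p = 0.18), and −0.14 after median ratio scaling (adjusted p = 0.82). Of its 9 reference transcripts 7 were listed, and the high value of W2 2 came mainly from XM_021079370.1, at 10.5 units there and at most 7.66 in any other sample.

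The inhibitor gene NFKBIA (chromosome 7, 64508119 to 64510754, 1 transcript) encodes IkappaB alpha and had the highest level of the 10 genes in every sample. It was listed at 43.0, 67.9 and 48.0 units in MG, 54.2, 45.7 and 53.2 in LG, 53.7, 27.1 and 37.0 in EL, 42.5, 77.9 and 78.0 in PL, and 62.1, 57.4 and 53.6 in W2. PL 3 and PL 6 were above every other sample, and PL 2 was near the low end. As deposited the log2 change in PL against the other stages was 0.38 ± 0.22 (SE, adjusted p = 0.22). After median ratio scaling the PL samples stood at 75.1, 92.7 and 93.0 scaled units, above the 32.4 to 55.0 of all other samples, and NFKBIA rose by 0.93 ± 0.14 (adjusted p = 0.0011). On that scale it rose by 0.95 against MG (adjusted p = 0.0063), 0.83 against LG (adjusted p = 0.016) and 1.08 against EL (adjusted p = 0.0063), and fell by 0.88 in W2 against PL (adjusted p = 0.0081). Without PL 2, and with no scaling, the rise against the other stages was 0.67 (adjusted p = 0.045).

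TNFAIP3 encodes A20, a ubiquitin-editing enzyme that shuts the pathway off (chromosome 1, 26474158 to 26489771). Its gene sum was 5.61, 5.36 and 5.16 units in MG, 5.44, 5.93 and 6.78 in LG, 5.01, 3.90 and 4.31 in EL, 1.60, 4.43 and 4.95 in PL, and 5.56, 5.94 and 5.39 in W2. Outside PL 2 the level held within 3.90 to 6.78 units. The log2 change of the sum in PL against the other stages was −0.60 ± 0.24 (SE, adjusted p = 0.075), and −0.12 after median ratio scaling (adjusted p = 0.70). NFKBIA and TNFAIP3, both feedback inhibitors, had log2 changes of opposite sign, neither of them called as deposited. With the scaling and without PL 2 together the change of TNFAIP3 turned positive as well. The difference between the 2 genes was not tested.

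The transcripts listed for TNFAIP3 differed in PL 2 and PL 3. XM_005659182.3 carried nearly the whole sum in 13 samples and was listed at 0 in PL 2 and 0.580 units in PL 3, where XM_013992530.2 stood at 1.60 and 3.85 units and at most 0.0345 elsewhere. In limma's fit over all transcripts XM_005659182.3 fell by 2.02 ± 0.49 (SE, log2) in PL against the other stages (adjusted p = 0.027). XM_013992530.2 rose by 1.69 ± 0.45 (adjusted p = 0.043), short of the 4-fold change that the study asks of a differentially expressed transcript. PL 6 kept XM_005659182.3 at 4.95 units with XM_013992530.2 at 0. IKBKB showed a similar exchange in PL 2 alone, where NM_001099935.1 and XM_021077170.1 were listed at 0 and XM_021077168.1 at 4.13 units, against at most 0.03 for the last in any other sample. Transcripts of 1 gene can share reads, so the split between them is uncertain, and the part of read assignment in the exchange was not tested.

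**Figure D3:**
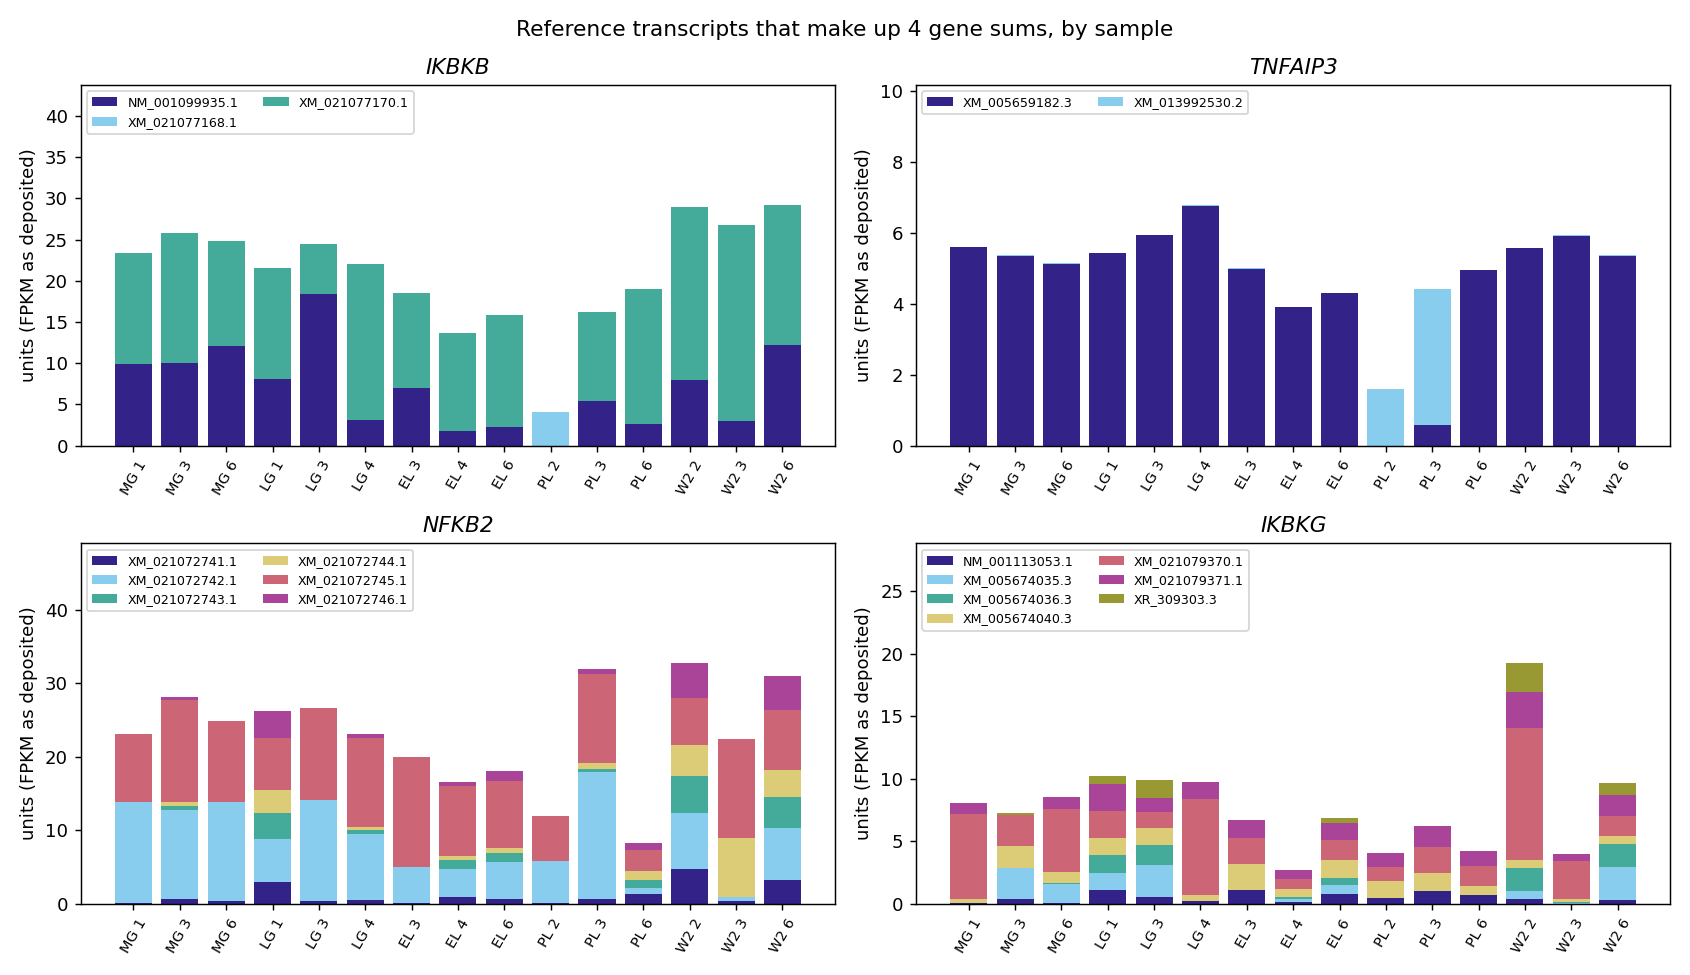
Stacked bars of the reference transcripts that add up to the gene sums of IKBKB, TNFAIP3, NFKB2 and IKBKG in each of the 15 samples, in units from 0 (FPKM as deposited). PL 2 shows other leading transcripts than the rest for IKBKB (XM_021077168.1 at 4.13) and, with PL 3, for TNFAIP3 (XM_013992530.2 at 1.60 and 3.85).

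BIRC3 encodes cIAP2, a ubiquitin ligase of the TNF receptor complex (chromosome 9, 33003570 to 33020252, 1 transcript). It was listed at 0.101, 0.0692 and 1.40 units in MG, 0, 0.108 and 0.0647 in LG, 0, 0.0576 and 0.0607 in EL, 15.4, 0.0748 and 0.0281 in PL, and 0.0769, 0.0222 and 0.110 in W2. Only PL 2 and MG 6 exceeded 1 unit, and only through them did a stage mean pass the 0.5 units that the table requires. The log2 change in PL against the other stages was 1.45 ± 0.79 (SE, adjusted p = 0.19), and it became −0.17 without PL 2.

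In counts, limma called 4 of the 10 genes in PL against the other stages: NFKB1 was higher and RELA, CHUK and IKBKB were lower. Of all gene sums 30.3% were called in that comparison, 3.04% higher and 27.3% lower. After median ratio scaling NFKB1 and NFKBIA were called higher and RELA lower, beside 7.41% of all gene sums called higher and 8.96% lower. In W2 against PL 3 of the 10 were called, all higher, beside 32.9% of all gene sums called and 30.4% called higher. RELA rose by 3.47 ± 0.89 (SE, log2, adjusted p = 0.012), IKBKB by 1.33 ± 0.40 (adjusted p = 0.024) and CHUK by 0.58 ± 0.19 (adjusted p = 0.032). After median ratio scaling these changes were 2.88, 0.62 and −0.14, none was called (adjusted p = 0.064, 0.21 and 0.49), and NFKBIA was the only one of the 10 called, beside 13.1% of all gene sums. As deposited RELA alone was called in PL against MG, where 25.3% of all gene sums were called, and in PL against LG, with 14.8%. The counts among the 10 genes as deposited were near the share of all gene sums in these comparisons. After median ratio scaling NFKB1 and NFKBIA were called in PL against MG, LG and EL, where 2864, 2324 and 1371 of all gene sums were called.

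In the other 8 comparisons limma called none of the 10 genes as deposited. The share of all gene sums called was 0.0115% in LG against MG, 0.0269% in EL against MG, 0.0115% in W2 against MG, 0.0154% in EL against LG, 0.0346% in W2 against LG, 4.63% in PL against EL, 0.542% in W2 against EL and 2.68% in W2 against the other stages. At an unadjusted p under 0.05, 3 genes (NFKB1, RELA and NFKBIA) passed in PL against EL, where 19.0% of all gene sums did, and 0 in the remaining 7. In those 7 the share of all gene sums was 4.42% in LG against MG, 15.9% in EL against MG, 3.08% in W2 against MG, 6.18% in EL against LG, 7.56% in W2 against LG, 25.1% in W2 against EL and 27.1% in W2 against the other stages. As deposited all 10 genes had a lower mean in EL than in MG, LG and W2. Their median log2 change for EL against MG was −0.46, beside −0.34 for all gene sums. After median ratio scaling these medians were −0.14 and −0.07. On that scale CHUK was higher in EL, at 14.4, 16.1 and 15.2 scaled units, than in MG, at 12.5, 13.0 and 12.7. BIRC3 took part with means near 0, at 0.0394 units in EL and 0.0576 in LG. At the thresholds of the study, adjusted p below 0.05 and at least a 4-fold change, the transcript of RELA was called in W2 against PL, where 2.84% of all transcripts were, and the transcripts of RELA and XM_005659182.3 of TNFAIP3 in PL against the other stages, where 2.03% were.

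**Figure D4:**
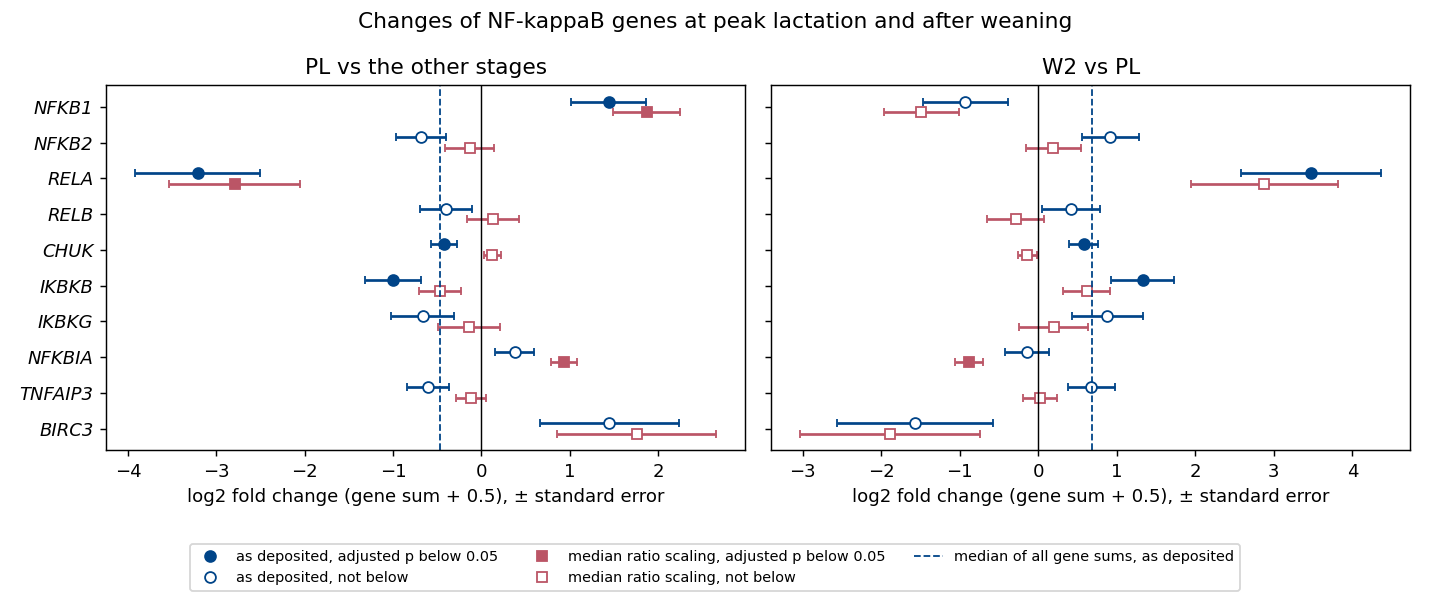
Log2 fold changes (units + 0.5) of the 10 genes with standard errors from limma, for PL against the other stages and W2 against PL, as deposited (circles) and after median ratio scaling (squares), with filled points below an adjusted p of 0.05. The dashed line marks the median of all gene sums as deposited, −0.47 and 0.68; RELA keeps its side and NFKBIA moves away from 0 under the scaling, while CHUK changes side.

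Of 7 other genes of the family, made up of the subunit gene REL, IkappaB proteins and co-regulators, 2 were called higher and 1 lower in PL against the other stages, with a median log2 change of −0.14, beside −0.47 for all gene sums. After median ratio scaling 3 were called higher (NFKBIB, NFKBIZ and BCL3) and 0 lower. These counts stand beside 3.04% of all gene sums called higher and 27.3% lower as deposited, and 7.41% higher and 8.96% lower after scaling. REL, which encodes the subunit c-Rel, was listed at 0.911, 1.53 and 1.51 units in PL and 1.38 to 2.42 elsewhere, and its log2 change was −0.41 (adjusted p = 0.097), or 0.010 after scaling (adjusted p = 0.97). NFKBIZ, a nuclear IkappaB protein induced by the pathway, was listed at 9.25, 11.4 and 20.4 units in PL and 5.18 to 11.1 elsewhere. It rose by 0.66 (adjusted p = 0.027), or 1.20 after median ratio scaling (adjusted p = 0.00052), and lost the call without PL 6. BCL3, a partner of p50 and p52 homodimers, rose by 1.36 (adjusted p = 0.040), or 1.81 after scaling, at 3.92, 1.82 and 3.17 units in PL and 0 to 3.30 elsewhere. Its call was lost when any of 7 single samples was left out, PL 2 among them (1.16, adjusted p = 0.17). NKRF, a repressor of NF-kappaB target genes, fell by 0.68 (adjusted p = 0.014), and its change after scaling was −0.20 (adjusted p = 0.46).

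Among 13 receptors and ligands that switch on the pathway, 2 were called higher and 1 lower in PL against the other stages, and 6 higher and 1 lower after median ratio scaling, beside the shares of all gene sums just given. Their median log2 change as deposited was −0.03. CD14, the coreceptor that hands lipopolysaccharide to TLR4, was listed at 234 and 298 units in PL 3 and PL 6, at 9.23 in PL 2 and at 3.45 to 9.92 in all other samples. It rose by 3.81 (log2, adjusted p = 0.0026). LY96, which binds lipopolysaccharide on TLR4, stood at 53.0 and 64.6 units in PL 3 and PL 6, at 4.82 in PL 2 and at 6.73 to 12.3 elsewhere, and its log2 change of 1.45 was not called as deposited (adjusted p = 0.059) but was after scaling (1.98, adjusted p = 0.013). PL 3 and PL 6 are also the samples in which NFKB1 and NFKBIA were highest. TLR2 was high in all 3 PL samples, at 55.4, 47.8 and 57.2 units against 11.3 to 52.3 elsewhere, and rose by 1.20 (adjusted p = 0.0094). TNFSF11, the RANK ligand of alveolar growth, stood at 1.12, 1.67 and 2.34 units in PL and 1.85 to 29.6 elsewhere, and fell by 2.11 (adjusted p = 0.0031), or by 1.65 after scaling (adjusted p = 0.010).

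Of 17 adaptors and kinases between receptor and IKK, 4 were called lower in PL against the other stages and 0 higher, with a median log2 change of −0.38. The count of lower calls was near the 27.3% of all gene sums called lower. TRAF2, an adaptor of TNF receptors, had a value of 0 in LG 4 and in each of the 3 PL samples, and 7.75 to 35.2 units in the other 11 samples (adjusted p = 0.00082). TRADD, the adaptor that recruits TRAF2 and RIPK1, was at 5.29, 11.1 and 9.77 units in PL and 11.6 to 29.6 elsewhere. It fell by 1.25 (adjusted p = 0.0017), and by 0.71 after median ratio scaling (adjusted p = 0.012). RIPK1 fell by 0.55 (adjusted p = 0.011) and MAP3K7, the kinase TAK1, by 1.41 (adjusted p = 0.037), but after scaling neither was called, with log2 changes of 0.0024 and −0.90, and MAP3K7 also lost its call without any of 9 single samples, PL 2 and PL 3 among them. After scaling 2 of the 17 were called higher, IRAK1 and TAB2, and 2 lower, TRADD and TRAF2. Of 9 genes of ubiquitin editing and feedback, 1 was called, OTULIN, which fell by 0.61 (adjusted p = 0.023) and was at −0.08 after scaling (adjusted p = 0.66).

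Of 20 known target genes in the table, 4 were called higher and 5 lower in PL against the other stages, and 5 higher and 1 lower after median ratio scaling. The 5 lower calls were near the 27.3% of all gene sums called lower, and 3.04% were called higher, or 7.41% after scaling. The median log2 change of the 20 was −0.13 as deposited. CXCL2, a neutrophil chemokine, was listed at 8.16, 8.62 and 9.00 units in PL and at most 3.03 elsewhere, and rose by 2.64 (log2, adjusted p = 0.0039). SOD2, the mitochondrial superoxide dismutase, stood at 833 and 733 units in PL 3 and PL 6, at 30.3 in PL 2 and at 30.6 to 72.4 elsewhere, and rose by 2.37 (adjusted p = 0.026). ICAM1, the ligand of leukocyte integrins, was at 5.79, 42.5 and 28.6 units in PL and 1.41 to 10.4 elsewhere, and rose by 1.73 (adjusted p = 0.028), while PTGS2, cyclooxygenase 2, rose by 1.00 (adjusted p = 0.021). The calls of SOD2, ICAM1 and PTGS2 were lost without PL 3 or without PL 6. CCND1, cyclin D1, was at 7.23, 8.59 and 5.30 units in PL and 10.9 to 55.0 elsewhere, and fell by 1.83 (adjusted p = 0.00038), or by 1.29 after scaling (adjusted p = 0.0036). The other lower calls, VCAM1, LTB, IRF1 and PLAU, with log2 changes of −0.92 to −0.73, were not called after scaling or without PL 2.

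**Figure D5:**
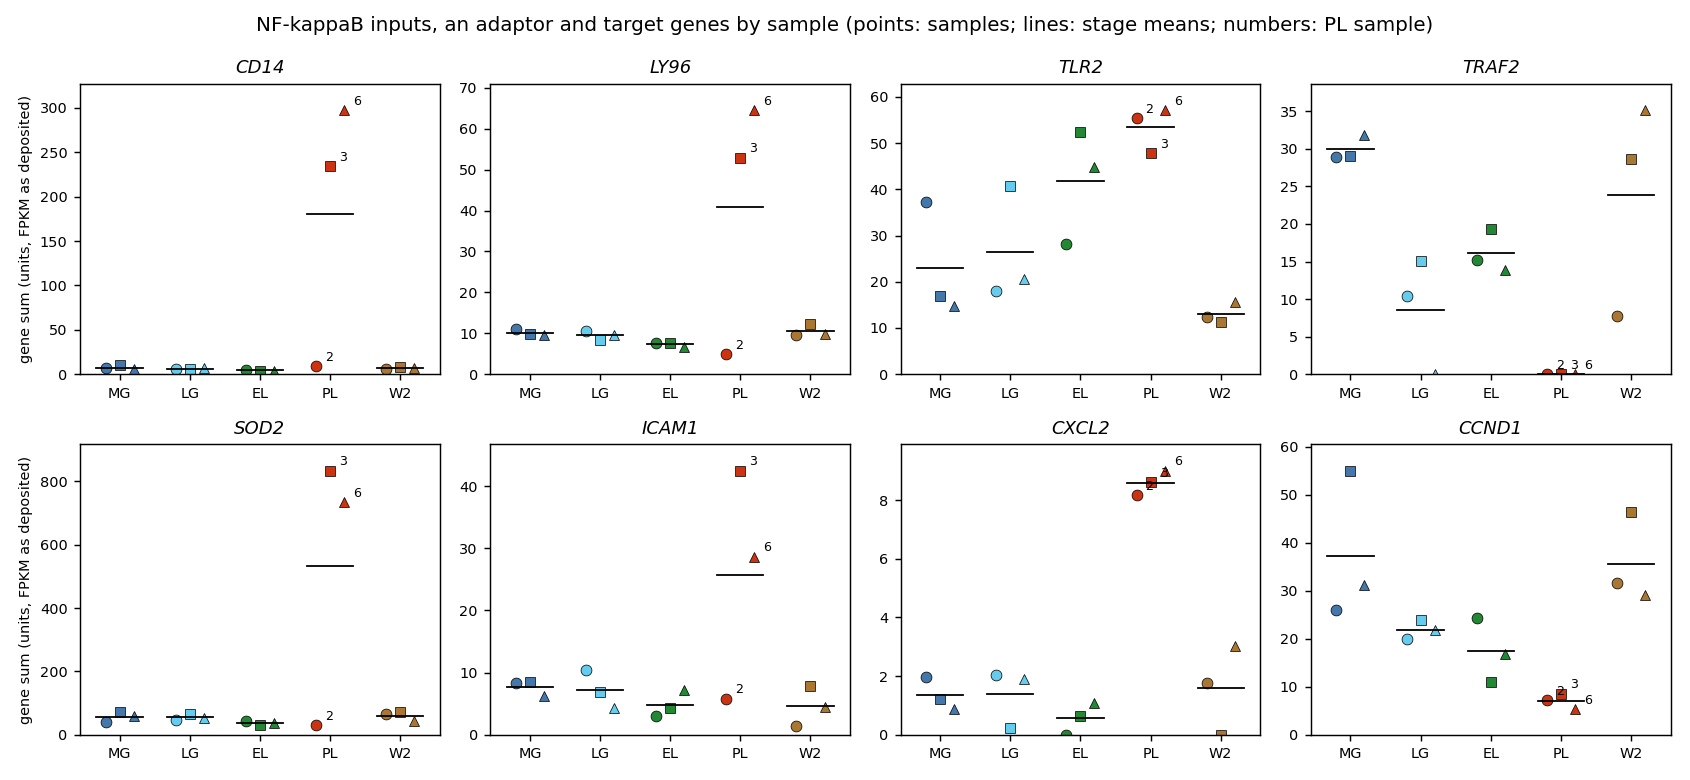
Gene sums in units (FPKM as deposited, linear axes from 0) of 3 receptors or coreceptors, the adaptor TRAF2 and 4 target genes for the 15 samples, with samples as points, stage means as lines and PL samples numbered. CD14, LY96, SOD2 and ICAM1 are high in PL 3 and PL 6 but not in PL 2, whereas CXCL2 is high, and CCND1 and TRAF2 low, in all 3. TLR2 is high in all 3 as well, but overlaps samples of other stages.

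Markers of other cells moved with PL too, and their part in the values above was not tested. Of 4 neutrophil markers in the table, S100A8, S100A9 and S100A12 were called higher in PL against the other stages, with log2 changes of 3.41 to 3.48 (adjusted p at most 0.00067). The sum of the 4 was 9.21 to 47.1 units in PL and 0.458 to 3.56 elsewhere. The lineage marker CSF3R was at 0.116, 1.53 and 0.673 units in PL, against 0.458 to 1.66 elsewhere. Of 4 macrophage markers 3 were called lower, with a sum of 19.6 to 34.8 units in PL and 32.6 to 72.5 elsewhere, and 1 of 4 after median ratio scaling. Of 5 T cell markers 4 were called lower, with a sum of 6.53 to 19.1 in PL and 13.4 to 30.8 elsewhere, and 0 of 5 after scaling. Of all gene sums 3.04% were called higher and 27.3% lower as deposited, and 7.41% higher and 8.96% lower after scaling. CSF1R, a macrophage receptor, stood at 1.31, 7.46 and 1.81 units in PL 2, PL 3 and PL 6 and at 2.29 to 20.0 units outside PL. CD14, also a gene of monocytes and macrophages, was high in PL 3 and PL 6 alone.

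By the correlation of log2(units + 0.5) over the 15 samples, the reference genes most like RELA were LIMA1 (Pearson's r = 0.985), KAT6A (0.981) and KRI1 (0.975). Those most like IKBKB were VAMP3 (0.993), RETREG2 (0.992) and IST1 (0.990), and for TNFAIP3 they were MED30 (0.970), DERL1 (0.969) and SGPL1 (0.967). NFKBIA was most like CERS4 (0.888), CXCL16 (0.880) and CYS1 (0.874), and NFKB1 most like CHPF (0.896), LPIN2 (0.884) and LOC100625850 (0.872). For CHUK the nearest were ARIH1 (0.955), CAPZA1 (0.954) and ABL2 (0.944), and for NFKB2 NT5DC3 (0.915), PRRC2C (0.899) and PPM1F (0.899). IKBKG was most like MCRIP1 (0.875), MYCT1 (0.808) and BCKDK (0.804), BIRC3 most like WFDC1 (0.815), ERP29 (0.799) and SLC5A6 (0.764), and RELB most like DNAJC14 (0.814), XIAP (0.802) and ANKRD40 (0.800). Among the 10 genes themselves the closest pair was IKBKB and TNFAIP3 (0.95), followed by CHUK and IKBKB (0.876). These values describe samples that share stages and the low scale of PL 2, and carry no test.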

How the data were processed

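The deposited table gives FPKM, as the authors name it, for 61773 transcripts in 30 samples. The authors used FastQC for read quality, Trimmomatic for trimming, HISAT2 for alignment to Sscrofa11.1 and StringTie for assembly and quantification, and kept transcripts with at least 0.5 FPKM in a stage. Whether their correction for unwanted variation is in the values is not stated. The table holds no reads per transcript, so depth and counting error are unknown. Identifiers were matched to the RefSeq annotation of Sscrofa11.1 (32726 of 61773, the other 29047 being assembled), and transcripts were summed per gene.

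The log2(gene sum + 0.5) of 15 samples was tested with limma 3.58.1 (R 4.3.3, trended variance, 1 fit, 10 pairwise contrasts and PL or W2 against the other stages, Benjamini-Hochberg adjustment over 25991 gene sums, or 61773 transcripts), tested on simulated data. Single genes also had two-sided exact permutation tests over samples, 20 of PL or W2 against 12 other samples as deposited and the same tests after median ratio scaling, not adjusted. With 3 against 3 samples the exact p cannot go below 0.10. The 10 genes, the gene lists and the tests were chosen with earlier results of these data known. The text names all 10 genes, the called genes of each pathway list (at most 12 per list), at most 2 examples per marker list where not called together, and the 3 genes of most like pattern per gene. Replicate numbers belong to different sows. Alternatives were other scalings, pseudocounts, a filter, sample sets and left-out samples. Sequences were not analysed here.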

Additional observations from a re-analysis of the deposited data

How the results depend on the processing

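Which of the 10 genes were called depended on the scaling, on PL 2 and on which samples were counted. Median ratio scaling gave log2 changes of 0.12 for CHUK, 0.13 for RELB and 0.0024 for RIPK1 in PL against the other stages, and −0.14 and −0.29 for CHUK and RELB in W2 against PL, all opposite in sign to the values as deposited. Quantile normalization gave 0.068 for CHUK and 0.098 for RELB, and −0.12, −0.29 and −0.025 for CHUK, RELB and TNFAIP3 in W2 against PL. With median ratio scaling and without PL replicate 2, an alternative added after seeing the data, CHUK was at 0.12, RELB at 0.087, IKBKB at 0.020, OTULIN at 0.021, TNFAIP3 at 0.17 and BIRC3 at −0.12 against the other stages, and CHUK, RELB and TNFAIP3 at −0.14, −0.24 and −0.26 in W2 against PL. Both scalings shrink the median change of all gene sums by construction. Over all gene sums, 7886 were called in PL against the other stages as deposited (10.0% of them higher) and 4256 after median ratio scaling (45.3% higher), and in W2 against PL 8543 (92.5% higher) and 3403 (56.7% higher). In PL against MG 6564 (8.84% higher) became 2864 (45.8%), in PL against LG 3835 (11.0%) became 2324 (42.5%), in PL against EL 1204 (16.8%) became 1371 (48.1%), and in W2 against the other stages 697 (88.2%) became 117 (41.9%).

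Counts of called genes moved as follows. In at least 1 of the 10 pairwise comparisons 3 genes were called, against 10 with all 6 samples per stage, 9 with the near-identical samples counted as 1, 0 with the compared stages alone, 1 on the highest transcript and 1 with a 4-fold change. With all 6 samples per stage, whose near-identical samples narrow the spread, the calls were 3 in EL against LG, 3 in EL against MG, 5 in PL against EL, 10 in PL against LG, MG and the other stages, 6 in W2 against EL, 9 in W2 against PL and 5 in W2 against the other stages. With these samples counted as 1 they were 3 in PL against EL, 6 in PL against LG and against MG, 8 in PL against the other stages, 2 in W2 against EL, 7 in W2 against PL and 2 in W2 against the other stages. Median ratio scaling, quantile normalization and the scaling without PL replicate 2 each gave 2 calls (NFKB1 and NFKBIA) in PL against EL, LG and MG, and the last also 2 against the other stages. Median ratio scaling gave 1 in W2 against PL. The compared stages alone gave 0 in PL against LG, PL against MG and W2 against PL. The highest transcript gave 0 in PL against LG and against MG, 2 against the other stages and 1 in W2 against PL, and the 4-fold rule gave 1 in each of the last 2. Transcripts called in the pairwise comparisons at the study's thresholds were 1, against 0 with median ratio scaling, 4 with all 6 samples and 3 with near-identical samples counted as 1.

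Samples of different stages share a number but not a sow. Over 19 pairs with the same number the mean correlation of deviations was 0.013 (−0.14 to 0.17), and 2 of 15 samples correlated best with their own number. With the replicate block the calls were 0 in PL against LG, 0 in PL against MG, 2 in PL against the other stages (NFKB1 and RELA) and 0 transcripts.

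Leaving out 1 sample at a time gave 0 to 1 calls in EL against MG, 0 to 2 in PL against EL, 0 to 3 in PL against LG, 0 to 3 in PL against MG, 0 to 1 in W2 against EL, 1 to 4 in W2 against PL, 0 to 1 in W2 against the other stages and 0 to 3 transcripts. RELA kept its calls in PL against the other stages and in W2 against PL in all 15 cases. It lost them in PL against LG without LG 1, LG 3, LG 4, PL 2 or PL 3, and in PL against MG without MG 3, MG 6 or PL 2. CHUK kept its call against the other stages only without PL 6 or without W2 2. In W2 against PL, CHUK lost its call without PL 2, W2 3 or W2 6, and IKBKB without W2 2, W2 3 or W2 6. New calls in PL against the other stages were NFKB2 without PL 3, TNFAIP3 without PL 3 or PL 6, IKBKG without W2 3 and NFKBIA without PL 2. In W2 against PL they were NFKB1 without PL 2, NFKB2 without PL 3, TNFAIP3 without PL 6 and IKBKG without W2 3. BIRC3 ranged from −0.17 to 2.29 in PL against the other stages and from −2.41 to 0.045 in W2 against PL, and NFKBIA from −0.43 to 0.0010 in W2 against PL. VCAM1 lost its call in 13, LTB in 11 and IRF1 in 10 of the 15 cases. The causes were not tested. With 3 samples per stage and no read counts, a change that misses the threshold may be present.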

Other observations

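Other markers gave the following values in PL against the other stages, with their part in the changes of the NF-kappaB genes not tested. The counts stand beside 3.04% of all gene sums called higher and 27.3% lower as deposited, and 7.41% higher and 8.96% lower after median ratio scaling. Of 6 luminal epithelial markers 1 was called lower as deposited (CDH1, not called without PL 2, adjusted p = 0.27 in limma) and 1 higher after median ratio scaling (EPCAM), and their sum was 837 to 1766 units in PL and 1315 to 1992 elsewhere. Of 4 basal and myoepithelial markers 0 were called as deposited by limma (0 at an unadjusted p under 0.05) and 2 higher after scaling (KRT5 and ACTA2), with sums of 743 to 1858 units in PL and 850 to 1652 elsewhere. Of 5 fibroblast markers 3 were called lower, and 1 (LUM) after scaling, with sums of 243 to 642 units in PL and 382 to 1246 elsewhere. Of 3 endothelial markers 1 was called lower (KDR), on both scales, with sums of 68.9 to 101 units in PL and 90.1 to 166 elsewhere. Of 4 B cell and plasma cell markers 0 were called by limma on either scale, and 1 had an unadjusted p under 0.05 as deposited (CD79B). Of 3 adipocyte markers LEP, the leptin gene, rose by 3.46 on the log2 scale (adjusted p = 0.00067 in limma), at 1.56, 15.8 and 14.6 units in PL and at most 0.622 elsewhere, and FABP4 fell by 1.03 (adjusted p = 0.00072) as deposited, with a change of −0.46 after scaling (adjusted p = 0.14).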
